A study of Homo sapiens with 24 samples.

Results

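MDA-MB-175 and ZR-75-30 are established human breast carcinoma lines, derived from a pleural effusion and from ascites. To describe how they differ in the control condition, the 4 MDA-MB-175 and the 4 ZR-75-30 cultures kept in 5 mM (low) glucose were compared by RNA-Seq, 8 of the 24 samples in the series. The study kept 3 estrogen receptor-positive (ER+) lines for 48 hours in medium without serum, with low or 25 mM (high) glucose. The other 16 samples are these 2 lines at high glucose and the line HCC1500 at both concentrations. Both groups compared here had the same medium and the same time, and no engineered allele or drug was given to either. Each group is 1 line, so its 4 cultures measure the spread within a line and not that among tumors or donors, and the labels do not say how the cultures were separated. Genes entered the comparison when their value reached 0.5 in at least 4 of the 8 samples, which kept 16890 of the 18889 genes in the table.

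Luminal breast cancer cells resemble the cells that line the milk ducts. They carry keratins 8, 18 and 19 and depend on the estrogen receptor (ESR1) together with GATA3 and FOXA1, factors that open and hold luminal enhancers. Within this class, lines differ in the ERBB2 receptor tyrosine kinase, which can be amplified with its neighbors on chromosome 17q, in E-cadherin (CDH1), which holds epithelial cells together and is often lost in breast carcinoma, and in secretory products such as mucins and mammaglobins. MDA-MB-175 is known for a fusion of NRG1 with TENM4 that makes it secrete a ligand for its own ERBB receptors, and ZR-75-30 for ERBB2 amplification.

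Expression was given as normalized read counts, which are reads divided by 1 factor per sample. Recovered reads numbered 9140024 to 15704613 per MDA-MB-175 library and 9463981 to 13113305 per ZR-75-30 library. A count of 3 reads, taken here as the detection floor, was worth 1.20 to 2.01 in MDA-MB-175 and 1.66 to 2.29 in ZR-75-30. The values summed to 6023520 to 6302200 per MDA-MB-175 sample and to 7225350 to 7323710 per ZR-75-30 sample, without overlap, so the scaling chosen bears on small differences. No library stood apart: over the 12789 genes whose mean reached 10, Pearson's r of log2 values was 0.989 to 0.993 within a line and 0.757 to 0.764 between the lines (genes are not independent replicates). Mitochondrially encoded genes took 3.85% to 4.47% of the values in MDA-MB-175 and 5.87% to 6.49% in ZR-75-30, a gap that came mainly from the ribosomal RNAs, at 0.199% to 0.227% and 1.52% to 1.71%.

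Most genes differed between the lines. With limma on log2(value + 1), 12541 of 16890 genes (74.3%) were called at an adjusted p under 0.05, 44.9% of all tested genes higher in MDA-MB-175 and 29.4% higher in ZR-75-30. A second call rule also asked for a difference of at least 1 log2 unit, and 5827 genes (34.5%) met it. Of these, 4028 were higher in MDA-MB-175 (23.8% of tested genes) and 1799 in ZR-75-30 (10.7%). Counts of list members below are read against these shares, and called with at least 1 log2 unit always means the second rule. The values of the 2 lines did not overlap for 11491 genes (68%). The difference, always MDA-MB-175 minus ZR-75-30, had a median of 0.19 log2 units over all tested genes, a median size of 0.65 and a median SE of 0.11.

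The balance between directions depended on the scaling. MDA-MB-175 held the higher value in 60.4% of called genes as deposited, in 71.7% after scaling each sample to CPM and in 50.3% once a smooth trend with exon length, which also takes out the median, was removed. For calls with at least 1 log2 unit the share was 69.1% as deposited, 78.2% after CPM scaling and 60% with the exon length trend removed. The median difference moved from 0.19 to 0.41 when all samples were scaled to the same total, so the direction of a difference well under 1 log2 unit depends on the scaling. Across genes, the difference had a Spearman correlation of 0.02 with exon length (16320 genes, a description only).

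**Figure D1:**
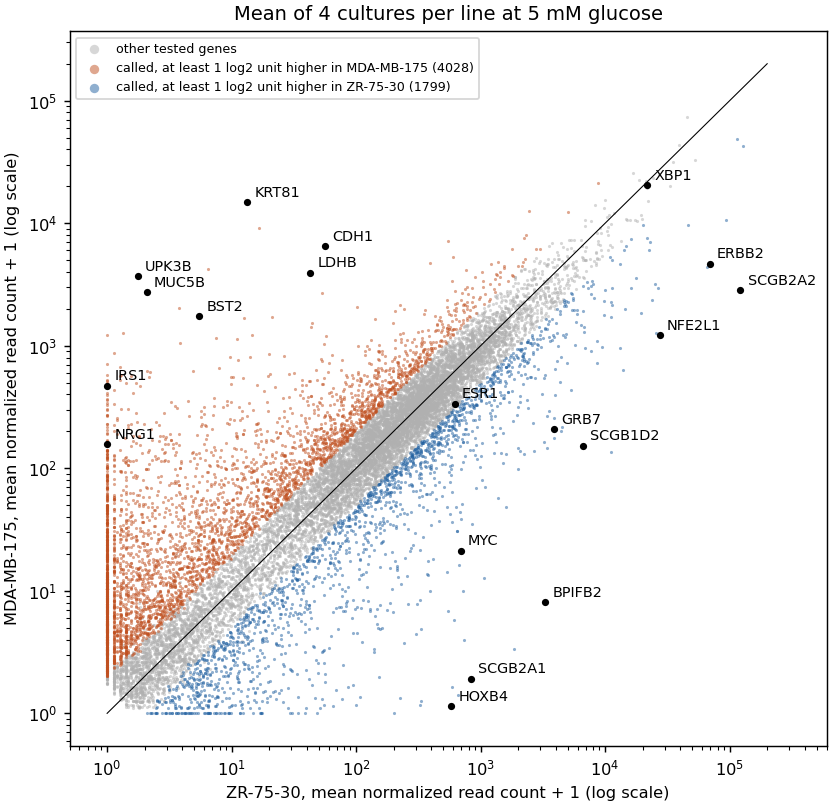
Mean normalized read count plus 1 of 4 cultures in ZR-75-30 (x axis, log scale) and MDA-MB-175 (y axis, log scale) for the tested genes, with called genes of at least 1 log2 unit in color and the line of equal values. CDH1, KRT81 and LDHB lie far above the line, the secretoglobins and ERBB2 far below it, and a column of points at the left edge holds genes at 0 in ZR-75-30.

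Some genes were seen in 1 line only. Counting a gene as detected when all 4 libraries held more than 3 reads and as not detected when all 4 held 3 or fewer, 1131 genes were detected in MDA-MB-175 alone and 181 in ZR-75-30 alone, while 12555 were above the floor in all 8 libraries. Of the first group, 525 had no read in any ZR-75-30 library, against 35 of the second with none in MDA-MB-175. A mean value of at least 100 was reached by 115 genes of the first group and 9 of the second. A gene with no read in a line entered the comparison only through the other line, and so could only be called higher there. For genes near 0 in a line, the log2(value + 1) difference is set partly by the added 1, and a fold is given below only where both lines were above the floor in all libraries, or as a lower bound against 3 reads per library where a line had no read. Pairs of values in parentheses give MDA-MB-175 first, as means of 4 cultures.

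Apart from CDH1, which was low in ZR-75-30, the defining luminal markers were abundant in both lines. All 9 luminal markers were called, 4 higher in MDA-MB-175 and 5 in ZR-75-30, and only CDH1 differed by at least 1 log2 unit. Their summed value was 74605 to 85059.9 in MDA-MB-175 and 71187 to 75821 in ZR-75-30. ESR1 had values of 335, 338, 337 and 329.6 in the 4 MDA-MB-175 cultures and 606, 598, 625 and 643 in ZR-75-30, so that every ZR-75-30 culture was higher (log2 difference -0.88 ± 0.04 SE, limma adjusted p = 1.14e-09). The progesterone receptor PGR, a gene that ER normally induces, was at most 1 read a library in both, with 0.401, 0.67, 0 and 0 in MDA-MB-175 and 0.554, 0.569, 0.57 and 0.763 in ZR-75-30 (limma adjusted p = 0.243).

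The factors that act with ER differed less. GATA3 was 1329 ± 78.8 (SD, n = 4) in MDA-MB-175 and 1931 ± 42.3 in ZR-75-30, and FOXA1 was 2253 ± 87.2 and 2853 ± 70.8, both higher in ZR-75-30 without overlap. XBP1, a secretory pathway factor, was 20304 ± 159.9 and 21862 ± 337, and its difference of -0.11 log2 units turned to 0.13 in favor of MDA-MB-175 after CPM or equal-total scaling. KRT8 (22515 ± 2213 and 18786 ± 708), KRT19 (15485 ± 1605 and 9921 ± 566) and the surface marker EPCAM (1818 ± 53.8 and 1318 ± 52.2) were higher in MDA-MB-175, and KRT18 (10536 ± 815 and 15720.2 ± 732) was higher in ZR-75-30. None of these reached 1 log2 unit, and the KRT8 difference was not called in a model on all 24 samples or once the exon length trend was removed.

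**Figure D2:**
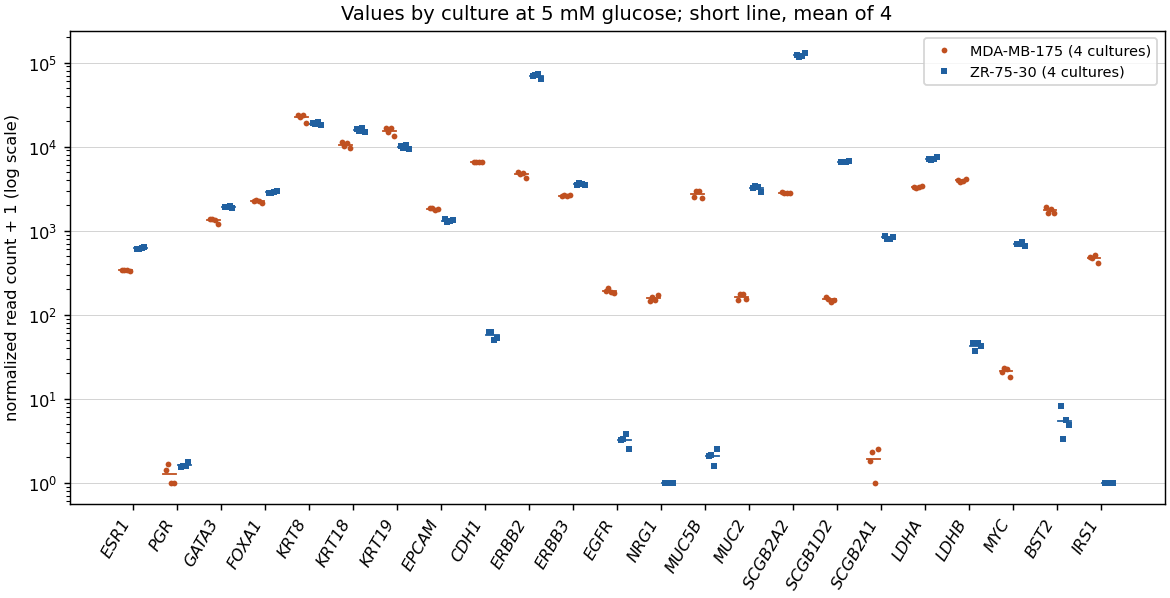
Normalized read count plus 1 (log scale) of 23 genes in the 4 cultures of each line at low glucose, each point a culture and each short line a mean. The luminal factors and keratins at the left sit close together in both lines, PGR sits near 1 in both, and CDH1, ERBB2, MUC5B, LDHB and IRS1 are far apart with tight replicates.

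Markers of other cell types were low, and more of them were seen in MDA-MB-175. Summed values of 8 basal or myoepithelial markers were 302 to 322 in MDA-MB-175 and 14.4 to 17.1 in ZR-75-30, and EGFR (191 and 2.22) and KRT17 (55.3 and 0.142) made up most of the first sum. The 10 fibroblast markers summed to 115 to 140 and 101 to 117, with COL1A1 making up most of the sum in ZR-75-30 and PDGFRA, THY1 and POSTN at 0 in all MDA-MB-175 libraries. Endothelial markers (7 in the table) summed to 86.5 to 101 and 7.76 to 11.9, and 3 leukocyte markers to 12 to 14.7 and 5.54 to 6.84. PDGFRA, THY1 and POSTN were also at 0 in all ZR-75-30 libraries. The samples are cultures of established lines and not tissue, so these sums are not read as shares of other cell types. The part of these markers in the differences between the lines was not tested. Within a line, bulk RNA cannot tell fewer cells with a transcript from less of it per cell.

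In a list named for luminal transcription factors, which also holds factors not particular to luminal cells such as FOXC1, 30 genes were tested. By the second rule 11 were higher in MDA-MB-175 (36.7%, against 23.8% of all genes) and 7 in ZR-75-30 (23.3%, against 10.7%). ELF5, which drives alveolar secretory fate, was 240.0, 264, 210.1 and 230.4 in MDA-MB-175 and between 0 and 1.66 in ZR-75-30. FOXC1 (65.2 against 0.329) and TBX2 (54.4 against 0.285) showed the same split, with at most 2 reads in all ZR-75-30 libraries together. TBX3 (532 and 1841) and TOX3 (191 and 788) were 3.46-fold and 4.12-fold higher in ZR-75-30. Of 32 steroid and nuclear receptors, 8 were higher in MDA-MB-175 (25%) and 7 in ZR-75-30 (21.9%) by that rule. After CPM or equal-total scaling these counts were 9 and 3. The fat cell and lipid receptors PPARG (483 and 52.3) and PPARA (113.8 and 7.61) were higher in MDA-MB-175, with log2 differences of 3.21 ± 0.13 and 3.86 ± 0.29 (SE).

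Genes that estrogen induces were split. Of 35 tested, 8 were called with at least 1 log2 unit higher in MDA-MB-175 (22.9%) and 7 in ZR-75-30 (20%), shares of which the second is above the 10.7% of all genes. GREB1, an ER cofactor and direct ER target, had values of 14.8, 16.8, 12.5 and 13.2 in MDA-MB-175 and 201, 240.0, 205 and 205 in ZR-75-30, a 14.8-fold difference of means. SERPINA1 (3.96 and 149), SUSD3 (6.07 and 146) and IGFBP5 (4409 and 65254) were also higher in ZR-75-30. The small heat shock protein gene HSPB8 (295, 258, 264 and 238) and OLFM1 (327, 298, 296 and 287) were the reverse, without a single read in ZR-75-30, at least 143-fold and 164-fold higher in MDA-MB-175. TFF1, the classic estrogen-induced secreted peptide, was close in both lines at 2491 ± 209 and 1803 ± 51.9, as was TFF3 at 13189 ± 1615 and 9697 ± 609. Their differences of 0.46 and 0.44 log2 units were called among the 8 samples but not in a model on all 24.

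E-cadherin showed the widest gap of any luminal marker. CDH1 (chromosome 16, 68771195 to 68869440, GRCh37) had values of 6512, 6487, 6503 and 6492 in MDA-MB-175 and 60.4, 62, 49 and 51.2 in ZR-75-30, a 117-fold difference of means (log2 difference 6.85 ± 0.07 SE, limma adjusted p = 2.72e-15). Its cytoplasmic partner p120 catenin, CTNND1, was higher in ZR-75-30 (2023 ± 53.1 and 3448 ± 82.3, SD, n = 4), and the rest of the junction list differed less than CDH1. Of 37 tested epithelial junction genes, 28 were called higher in MDA-MB-175 (75.7%, against 44.9% of all genes) and 7 in ZR-75-30. Only 9 (24.3%, against 23.8% of all genes) and 2 (5.41%, against 10.7%) reached 1 log2 unit. The tight junction gene CLDN1 (74.3 and 2.26) and the desmosomal PKP1 (61.9 and 0.614) led the first group. CLDN3 (15.5 and 124) and DSG2 (153 and 379) were the pair higher in ZR-75-30 by that size.

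Mesenchymal genes were more often higher in MDA-MB-175. Of 25 tested, 15 were called with at least 1 log2 unit higher in MDA-MB-175 (60%, against 23.8% of all genes), which has the higher CDH1, and 2 in ZR-75-30. The first count was 13 with a pseudocount of 5 and 10 with a filter at 10, which tests fewer genes. The transcription factors TWIST1 (32.9 and 1.41) and PRRX1 (26.6 and 0) and the matrix protein SPARC (21 and 0) had some of the largest differences. PRRX1 and SPARC entered the comparison through MDA-MB-175 alone. Tenascin C, TNC, had the larger difference of the pair higher in ZR-75-30, at 39.7, 32.8, 38.1 and 31 in MDA-MB-175 and 547, 619, 649 and 549 in ZR-75-30.

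ERBB receptors and their ligands differed in both directions. ERBB2 (chromosome 17, 37844167 to 37886679, GRCh37) had values of 4966, 4681, 4857 and 4185 in MDA-MB-175 and 68889, 70873, 72886 and 63593 in ZR-75-30. It made up 0.069% to 0.079% of all values in the first line and 0.880% to 0.995% in the second, a 14.8-fold difference of means (log2 difference -3.89 ± 0.06 SE, limma adjusted p = 3.28e-14). ERBB3, its partner without an active kinase, differed only 1.37-fold (2608 ± 20.01 and 3569 ± 73.1, SD, n = 4). ERBB4 was near the floor in both lines, and its difference of -0.99 log2 units was no longer called without MDA-MB-175 culture 1 (-0.92) or 3 (-0.83) or ZR-75-30 culture 2 (-0.75). EGFR was the reverse of ERBB2, at 189, 209, 187 and 179 in MDA-MB-175 and 2.22, 2.27, 2.85 and 1.53 in ZR-75-30.

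Of the ligands, NRG1 (chromosome 8, 31496738 to 32713184, GRCh37), which binds ERBB3 and ERBB4, had values of 146, 162, 150.3 and 169 in MDA-MB-175 and no read in any ZR-75-30 library, at least 85.2-fold higher. TENM4 (chromosome 11, 78363874 to 79152074), the known fusion partner, followed it with 435, 466, 488 and 422 against 0 in all 4 ZR-75-30 libraries, at least 246-fold higher. A single value per gene cannot tell a fused transcript from 2 separate ones. The EGFR ligand AREG was 66.6, 70.4, 60.4 and 82.9 in MDA-MB-175 and 14.4, 19.3, 0 and 6.87 in ZR-75-30, a wide spread in the second line but no overlap. EGF (269 and 654) and NRG4 (6.81 and 38.5) were higher in ZR-75-30. Over the 25 tested receptors, ligands and adaptors, 7 were called with at least 1 log2 unit higher in MDA-MB-175 (28.0%) and 5 in ZR-75-30 (20%).

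The listed genes around ERBB2 fell into blocks. The list does not hold every gene on this stretch of 17q, so the edges of the blocks are those among its members. Of 33 tested members, 15 were called with at least 1 log2 unit higher in ZR-75-30 (45.5%, against 10.7% of all genes). The 7 higher in MDA-MB-175 (21.2%) fell to 4 with edgeR or with the exon length trend removed. In chromosomal order, the 6 listed genes from MLLT6 to CWC25 were all higher in ZR-75-30. Among them were CISD3 (144 and 3402, 23.6-fold) and the proteasome subunit PSMB3 (632 and 13861, 21.9-fold). The next 5 on the list were higher in MDA-MB-175, from CACNB1 (14 and 4.91) to the transcriptional kinase CDK12 (702 and 396). The Mediator subunit MED1 (580.4 and 254) was between them. RPL19, also in this group, differed by only 0.14 log2 units, and was -0.07 once the exon length trend was removed.

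Among listed genes, the block around ERBB2 itself ran from PPP1R1B to IKZF3. It was again higher in ZR-75-30, except PNMT, which was near the floor in both lines. STARD3 (15.1-fold), PGAP3 (21.9-fold), ERBB2 (14.8-fold), MIEN1 (22.3-fold) and the adaptor GRB7 (18.7-fold) had ratios of means between 14.8-fold and 22.3-fold, while PPP1R1B stood at 2.54-fold and TCAP at 6.73-fold. GRB7, which binds ERBB2, had values of 229.9, 209.7, 228 and 164 against 3881, 3944, 4094 and 3634. Beyond IKZF3 the differences were smaller. From MSL1 to the topoisomerase gene TOP2A, a target that can be amplified together with ERBB2, every listed gene was higher in MDA-MB-175. Among them were TOP2A (2627 ± 153 and 1087 ± 29.7, SD, n = 4) and RAPGEFL1 (208 and 79.3). DNA copy number was not measured, so more gene copies and more RNA per copy cannot be told apart.

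**Figure D3:**
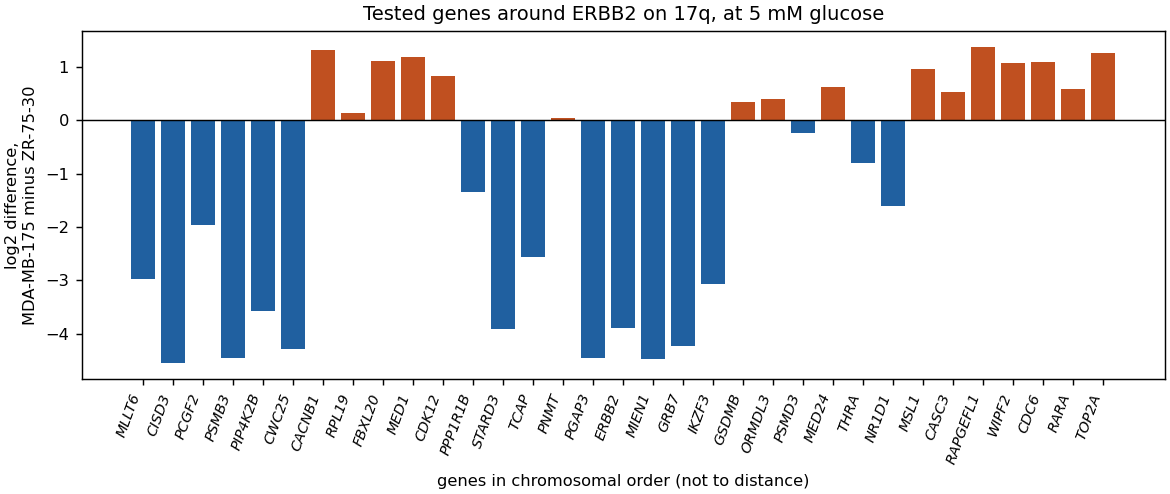
Log2 difference (MDA-MB-175 minus ZR-75-30) of the 33 tested list members around ERBB2, in chromosomal order and not to distance. Genes that are not on the list are left out. Bars below 0 are higher in ZR-75-30 and, apart from PSMD3, THRA and NR1D1, form 2 blocks, MLLT6 to CWC25 and PPP1R1B to IKZF3. Between them are 5 listed genes higher in MDA-MB-175.

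Other receptor tyrosine kinases were more often higher in MDA-MB-175, 20 of 39 tested (51.3%) against 9 (23.1%) with at least 1 log2 unit, including their docking proteins. IRS1, the substrate that passes insulin and IGF signals on, had values of 484, 468, 518 and 417 in MDA-MB-175 and no read in ZR-75-30, at least 256-fold higher. The hepatocyte growth factor receptor MET (98.1 and 1.13) and EPHB6 (59 and 0.285) were at or near the floor in ZR-75-30. FGFR1 was 7.76-fold higher in MDA-MB-175 (905 and 117) and FGFR4 4.08-fold higher in ZR-75-30 (173 and 707). The Wnt5a receptor ROR2 (11.6, 14.7, 9.68 and 5.09 against 228, 232, 240.4 and 218) and the pseudokinase PTK7 (18.4 and 125) were also higher in ZR-75-30.

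Secreted products differed strongly in both directions. Secretoglobins are small secreted proteins, and SCGB2A2 (mammaglobin A), SCGB1D2 (lipophilin B) and SCGB2A1 (mammaglobin B) lie near each other on chromosome 11. All 3 were higher in ZR-75-30. The 250 bases before each start are shown because these neighbors differ in the same direction, from RefSeq (GRCh38.p14, plus strand). Capitals in the SCGB2A1 and SCGB2A2 windows mark the longest run of letters that these windows share, and in that of SCGB1D2 the E-box CAGGTG, read on the other strand as CACCTG.
SCGB2A1, chr11:62208423-62208672: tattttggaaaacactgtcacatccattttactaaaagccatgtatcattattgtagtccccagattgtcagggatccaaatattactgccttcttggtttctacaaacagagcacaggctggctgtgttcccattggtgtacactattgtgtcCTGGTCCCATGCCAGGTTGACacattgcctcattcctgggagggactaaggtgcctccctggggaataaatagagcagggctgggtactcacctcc
SCGB1D2, chr11:62241989-62242238: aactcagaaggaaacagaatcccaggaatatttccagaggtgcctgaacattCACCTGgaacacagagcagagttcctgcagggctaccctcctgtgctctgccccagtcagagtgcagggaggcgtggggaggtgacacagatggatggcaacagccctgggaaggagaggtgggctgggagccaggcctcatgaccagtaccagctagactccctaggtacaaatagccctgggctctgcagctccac
SCGB2A2, chr11:62269908-62270157: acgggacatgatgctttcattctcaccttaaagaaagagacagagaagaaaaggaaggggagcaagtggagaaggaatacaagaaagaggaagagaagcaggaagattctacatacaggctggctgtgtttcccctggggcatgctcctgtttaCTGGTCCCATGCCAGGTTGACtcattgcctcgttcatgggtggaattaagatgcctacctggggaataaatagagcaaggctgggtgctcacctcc

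The SCGB2A1 and SCGB2A2 windows held the same base at 142 of 250 positions (56.8%) and shared a run of 21 bases that starts at position -96 in both, counted back from the start site. Of the genes in the promoter table, only these 2 held that run. SCGB1D2 matched them at 25.2% and 25.6% of positions. Of 7 motifs searched on both strands, SCGB2A2 held the forkhead letters TGTTTAC at -102, directly before and overlapping that run, SCGB2A1 held CCAAT, on the other strand, at -117 and SCGB1D2 the E-box at -198. TGTTTAC was in 2.98% of all 35116 windows, in 2.27% of those of genes called at least 1 log2 unit higher in MDA-MB-175, in 2.96% of those higher in ZR-75-30 and in 2.21% of those of the other tested genes. In the same order, CCAAT was in 32.0%, 30.1%, 31.7% and 33.7%, and the E-box in 17.5%, 18.3%, 16.7% and 15.7%. The others searched were AGATAA (9.17% of all windows), TATAAA (10.7%), GGGCGG (42.6%) and the estrogen response element (0.0399%). Promoters were found for 2277 of 4025 symbols higher in MDA-MB-175 and 1071 of 1798 higher in ZR-75-30, with a median GC content of 63.6% and 63.2%.

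SCGB2A2 had values of 2875, 2799, 2820.2 and 2816 in MDA-MB-175 and 122745, 115135, 118637 and 131009 in ZR-75-30, where it alone took 1.59% to 1.81% of all values, a 43.1-fold difference of means (log2 difference -5.43 ± 0.04 SE, limma adjusted p = 5.47e-16). SCGB1D2, whose product pairs with mammaglobin A, followed with 163, 155, 140.1 and 150.1 against 6641, 6557, 6524 and 6782, a 43.6-fold difference. SCGB2A1 had 0.803, 1.34, 0 and 1.53 in MDA-MB-175, at most 3 reads in a library, and 859.8, 804, 804 and 847 in ZR-75-30. The first pair thus differed by nearly the same ratio, while SCGB2A1 did not pass the floor in any MDA-MB-175 library.

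Over the whole list, mammary secretory genes went in both directions. Of 24 tested, 10 were called with at least 1 log2 unit higher in MDA-MB-175 (41.7%) and 5 in ZR-75-30 (20.8%). The protease inhibitor SLPI had values of 575, 543, 595 and 532 in MDA-MB-175 and 1.66, 0.569, 0 and 0 in ZR-75-30, and the lipocalin LCN2 159, 150.1, 151 and 144 against 1.11, 0.569, 0.57 and 0. TFF2 was 21.2 and 0.142. AZGP1, a lipid-binding gene of apocrine cells, was 3.3-fold higher in ZR-75-30 (732 and 2418). In the apocrine and androgen-linked list of 22 tested genes, 9 were higher in ZR-75-30 (40.9%) and 6 in MDA-MB-175 (27.3%), with the androgen-conjugating UGT2B17 (2.22 and 53.4) on one side and the reductase DHRS2 (1674 and 11.7) and SERHL2 (820.0 and 25.3) on the other.

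Mucins, the gel-forming and membrane glycoproteins of epithelia, were mostly higher in MDA-MB-175. Of 15 tested, 11 were called with at least 1 log2 unit higher there (73.3%) and 3 in ZR-75-30 (20%). The first count was 8 after CPM scaling or with a pseudocount of 5, and 6 with a filter at 10, which tests fewer genes. The gel-forming MUC5B (chromosome 11, 1244296 to 1283402, GRCh37) was 2488, 3004, 2961 and 2442 in MDA-MB-175 and 1.11, 1.14, 0.57 and 1.53 in ZR-75-30, which is 1 or 2 reads a library. MUC2 (chromosome 11, 1074875 to 1104416), the intestinal gel-forming mucin in the same gene cluster, was the reverse, at 147, 178, 174 and 152 against 3214, 3427, 3340.4 and 2897. MUC5AC lies between them and shared the direction of MUC2 at a low level (1.78 and 21). The membrane mucin MUC1 was 3.53-fold higher in MDA-MB-175 (4839 ± 295 and 1369.9 ± 64.6, SD, n = 4). MUCL1 (801 and 13), MUC3A (159 and 0) and MUC16 (10.2 and 0) were also higher in MDA-MB-175, and the sialomucin CD164 was 2.79-fold higher in ZR-75-30.

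Hair-type keratins were among the most counted genes of MDA-MB-175. KRT81 had values of 16089, 15175, 15951 and 12120.0 there and 8.86, 12.5, 16 and 12.2 in ZR-75-30, and KRT86 9682, 9453, 10044 and 7651 against 16.1, 17.1, 16.5 and 13, differences of means of 1198-fold and 588-fold. These neighbors on chromosome 12 are near-identical in sequence, so the split of reads between them is uncertain. The basal keratins KRT17 (55.3 and 0.142) and KRT15 (912 and 162) were higher in MDA-MB-175 as well. Of 9 further keratins tested, 4 were called with at least 1 log2 unit higher in MDA-MB-175 (44.4%, against 23.8% of all genes). None was so called in ZR-75-30, where the count was 1 without the size condition.

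**Figure D4:**
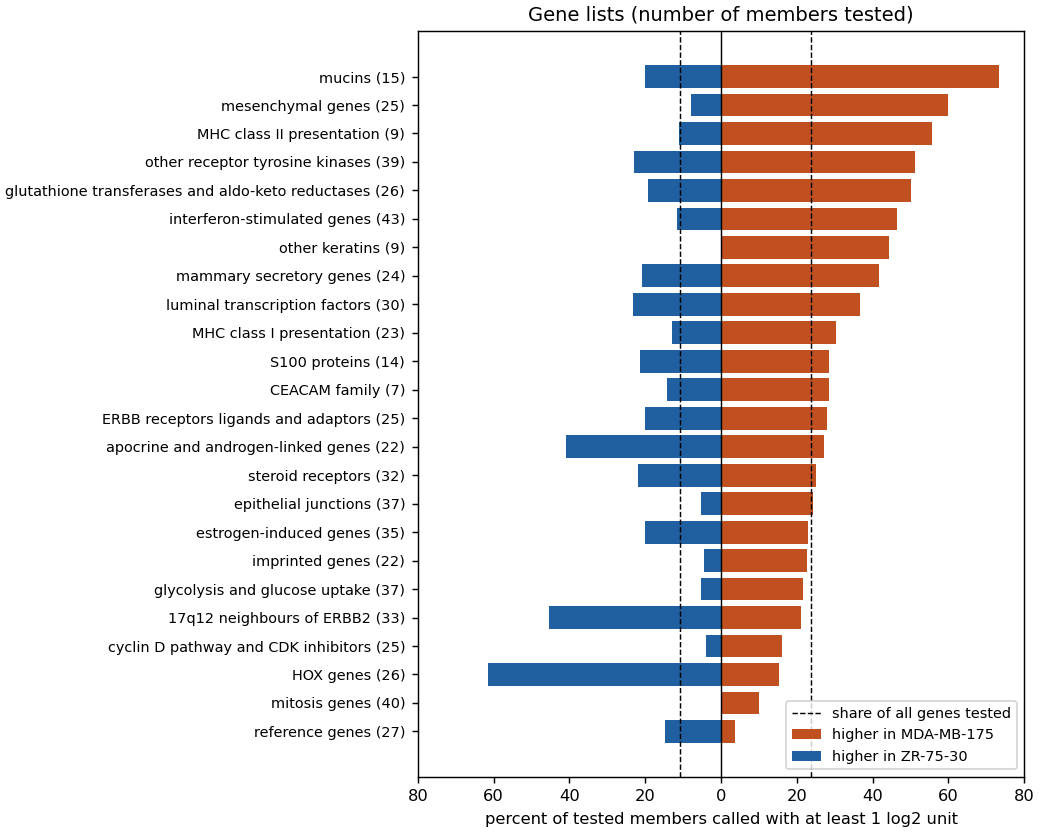
Percent of tested members called with at least 1 log2 unit in each gene list with 7 or more tested members other than the cell type marker lists, to the right where higher in MDA-MB-175 and to the left where higher in ZR-75-30, with dashed lines at the shares of all tested genes (23.8% and 10.7%). Mucins reach 73.3% on the right, and HOX genes and the 17q12 neighbors 61.5% and 45.5% on the left.

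Outside these lists, the largest differences involved genes of many kinds. In MDA-MB-175, UPK3B, a urothelial and mesothelial membrane protein, was highest of all with 3999, 3851, 4019 and 2903 against 0.554, 0.569, 1.14 and 0.763. The protein kinase A inhibitor PKIA (1207, 1196, 1215 and 1282), TSPYL5 (732, 697, 702 and 700.4) and the GABA receptor subunit GABRA3 (559.8, 587, 583 and 562) had no read in any ZR-75-30 library, at least 665-fold, 384-fold and 311-fold lower. The adenylate cyclase ADCY5 (1275 and 0.333), S100A9 (863 and 0.138), the secreted SCUBE2 (2029.7 and 2.78) and the noncoding RP11-259K21.3 (4248 and 5.5) completed the 10 largest with MUC5B and KRT81. S100A8, the partner of S100A9 in calprotectin, was only 5.89 in MDA-MB-175 and 0 in ZR-75-30.

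In ZR-75-30 the largest differences were those of the pseudogene CYP2B7P1 (2.37 and 1862, its exons shared with other annotated genes), HOXB4, SOD3, SCGB2A1, BPIFB2, WNK4, HOXB9, ENPP2, HOXC12 and WBP5. The extracellular superoxide dismutase SOD3 was 0.401, 0.67, 0.569 and 0 in MDA-MB-175 and 673, 627, 661 and 676 in ZR-75-30. BPIFB2, a secreted lipid-binding family member, was 6.82, 5.36, 6.83 and 9.16 against 3419, 3300.1, 3291 and 3114, a 466-fold difference. The ion transport kinase WNK4 (0.638 and 584) and autotaxin, ENPP2, which makes lysophosphatidic acid (0.268 and 331), were at or under the floor in MDA-MB-175. WBP5 had no read there and 207, 168, 210.2 and 213 in ZR-75-30, at least 124-fold higher.

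By level, the 5 most counted genes with a called difference of at least 2 log2 units in MDA-MB-175 were KRT81, the amyloid precursor APP (12536 ± 181 and 2436 ± 44), KRT86, the nucleotidase NT5C2 (7157 ± 172 and 543 ± 14.2) and CDH1. In ZR-75-30 they were SCGB2A2, the mitochondrial 16S ribosomal RNA, listed in the table as MIR4485 (10620.3 ± 591 and 93623 ± 4805), ERBB2, IGFBP5, which binds insulin-like growth factors (4409 ± 182 and 65254 ± 1887, SD, n = 4), and the poly(A)-binding protein PABPC1 (9707 ± 108 and 46365 ± 566). NT5C2 shares many exon bases with an annotated gene on the other strand.

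Interferon-stimulated genes, the antiviral program, were more often higher in MDA-MB-175. Of 43 tested, 20 were called with at least 1 log2 unit higher there (46.5%) and 5 in ZR-75-30 (11.6%). The virus-tethering BST2 was 1938, 1613, 1820.3 and 1622 in MDA-MB-175 and 7.2, 2.27, 4.56 and 3.82 in ZR-75-30 (log2 difference 8.40 ± 0.21 SE, limma adjusted p = 3.31e-12). IFITM3 (463 and 21.4, 21.7-fold), OAS1 (204 and 11.7, 17.5-fold) and OASL (32.8 and 0.281) followed. SAMD9L (3.52 and 92.6) and IFI35 (0 and 16) were higher in ZR-75-30.

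Antigen presentation genes did not move as 1 group. Among 23 tested genes of the MHC class I route, 7 were called with at least 1 log2 unit higher in MDA-MB-175 and 3 in ZR-75-30. These shares, 30.43% and 13.04%, were close to the 23.8% and 10.7% of all genes. The peptide transporter TAP1 (118, 124, 127 and 125 against 8.31, 17.1, 11.4 and 11.5 in ZR-75-30) and the immunoproteasome subunit PSMB9 (4.97 and 0.138) were higher in MDA-MB-175. The heavy chains HLA-B (85.9, 85.1, 83.7 and 74.3 against 316, 307, 348 and 315) and HLA-C (712 and 1497) were higher in ZR-75-30, with the limit that reads of these similar and polymorphic genes are hard to assign. For class II, 5 of 9 tested genes were higher in MDA-MB-175 (55.6%) and 1 in ZR-75-30 (11.1%) by that rule. The invariant chain CD74 was 44.1, 32.2, 57.5 and 42.7 against 0 in all ZR-75-30 libraries, the lysosomal thiol reductase IFI30 487 against 8.87, while HLA-DMB (0.495 and 14.5) was the gene higher in ZR-75-30.

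Cell division genes tended to be higher in MDA-MB-175, by small amounts. Of 40 mitosis genes, 28 were called higher there (70%, against 44.9% of all genes) and 3 in ZR-75-30. Their median log2 difference was 0.43 beside 0.19 for all genes. These counts were 36 and 2 after CPM scaling, 23 and 6 with edgeR, and 22 and 8 with the exon length trend removed. By the second rule 4 were higher in MDA-MB-175 (10%, against 23.8% of all genes), 9 after CPM or equal-total scaling and 3 with edgeR. As deposited, TOP2A and the spindle kinase AURKA (894 ± 35.9 and 300.2 ± 7.17) led them. KIF2C was higher in ZR-75-30 (257 ± 4.95 and 399 ± 16.8, SD, n = 4). The proliferation antigen MKI67 was 3049, 3225, 3348 and 3398 in MDA-MB-175 and 1931, 2111, 2043 and 1865 in ZR-75-30 (log2 difference 0.71 ± 0.05 SE, limma adjusted p = 2.87e-08). MYC stood against this direction, at 20.1, 22.1, 21.6 and 17.3 against 699.7, 685, 732 and 652, a 34.1-fold higher mean in ZR-75-30. Cyclin D1, CCND1, was 1.4-fold higher in MDA-MB-175 (6402 and 4575), as were the CDK inhibitors CDKN1A (2.59-fold) and CDKN2B (3.94-fold).

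For genes of glucose use, the lines split over lactate dehydrogenase. LDHB, the subunit that favors turning lactate into pyruvate, was 4045, 3809.7, 3882 and 4083 in MDA-MB-175 and 45.4, 35.8, 44.4 and 41.2 in ZR-75-30, a 94.8-fold difference of means. LDHA, the subunit that favors making lactate, was 2.16-fold higher in ZR-75-30 (3302, 3212, 3284 and 3430.4 against 7079, 6869, 7161 and 7492). The lactate exporter SLC16A3 (98.7 and 2.83) and SLC16A7 (13.1 and 0.566) were higher in MDA-MB-175, and SLC16A1 was low in both (9.39 and 20.1). Of the kinases that switch off pyruvate dehydrogenase, PDK4 was 16.8-fold higher in MDA-MB-175 and PDK2 4.1-fold higher in ZR-75-30. Over the 37 tested genes, 8 were called with at least 1 log2 unit higher in MDA-MB-175 (21.6%) and 2 in ZR-75-30 (5.41%). The second count was 4 without ZR-75-30 culture 1 and 7 with the exon length trend removed, and the first was 10 after CPM or equal-total scaling. Part of the exon sequence of LDHB is shared with another gene annotated on the same strand.

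Some detoxification enzymes were detected in 1 line only. Of 26 tested glutathione transferases and aldo-keto reductases, 13 were called with at least 1 log2 unit higher in MDA-MB-175 (50%) and 5 in ZR-75-30 (19.2%). Of the 28 members in the table, 8 had no read in any ZR-75-30 library and could only be called higher in MDA-MB-175. No member lacked reads in all MDA-MB-175 libraries. AKR1C2, which reduces steroids, was 347, 308, 322 and 336 in MDA-MB-175 with no read in ZR-75-30, at least 178-fold higher, and AKR1C3 was 113 and 0.52. GSTT1 (102 and 0) and GSTT2 (119 and 0.138) had the same split. GSTP1, often silenced in ER+ breast cancer, was at the level of 1 read in each MDA-MB-175 library (0.401, 0.67, 0.569 and 0.509) and at 65.9, 58, 77.5 and 69.5 in ZR-75-30, and GSTM3 was 2.7-fold higher in ZR-75-30. Members of these families resemble each other closely, and GSTT1 is a gene that many genomes lack.

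HOX genes, which set position along the body axis, were more often higher in ZR-75-30. Of 26 tested, 16 were called with at least 1 log2 unit higher there (61.5%, against 10.7% of all genes) and 4 in MDA-MB-175 (15.4%). The first count was 11 after CPM scaling, and the second was 2 without ZR-75-30 culture 1 or 2 and 1 after CPM scaling, with a pseudocount of 5 or with a filter at 10. HOXB4 was 0, 0, 0.569 and 0 in MDA-MB-175 and 580.0, 570.4, 570.2 and 592 in ZR-75-30. HOXB9 was 0, 0.67, 0 and 0 against 319, 324, 339 and 326. Each had a single read over the 4 MDA-MB-175 libraries. HOXC12, from another HOX cluster, was 2.81, 0.67, 2.28 and 6.1 against 739, 717, 771 and 689. HOXB2 was present in both and 20.8-fold higher in ZR-75-30 (217 and 4501). HOXB13, at the far end of the same cluster, was higher in MDA-MB-175 (27.2 and 0.142). Since neighbors in a cluster share their surroundings, these counts are not independent.

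Imprinted genes, of which normally a single parental copy is active, included some detected in MDA-MB-175 alone. PEG3 (121, 145, 138 and 143) and ZDBF2 (35.1) had no read in ZR-75-30, at least 74.2-fold and 19-fold lower. H19 (105 and 0.472) and IGF2 (55.4 and 0.142), neighbors under a shared control region, were both at or near 0 in ZR-75-30. GRB10 was 11.4-fold higher in ZR-75-30. By the second rule 5 of 22 tested genes were higher in MDA-MB-175 (22.7%) and 1 in ZR-75-30 (4.55%), the first close to the share of all genes. Of 5 cancer-testis antigens tested, MAGEC1 (25.6 and 0.427) and PRAME (569.6 and 301) were higher in MDA-MB-175 and ACTL8 (2.3 and 54) in ZR-75-30.

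Smaller families were mixed. Of 14 tested S100 genes, 4 were higher in MDA-MB-175 (28.6%) and 3 in ZR-75-30 (21.4%) by the second rule. The latter were led by S100A14 (2961 and 16258, 5.49-fold). In the CEACAM family, CEACAM6 was 6.52-fold higher in ZR-75-30 (1713 and 11177) and CEACAM5 1.89-fold higher in MDA-MB-175 (5229 and 2765), 2 similar neighbors on chromosome 19.

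Common reference genes were not level between the lines. Of 27 tested, 18 were called higher in ZR-75-30 (66.7%, against 29.4% of all genes) and 6 in MDA-MB-175, with a median log2 difference of -0.40 that stayed negative under the other scalings (-0.58 with the exon length trend removed to -0.16 after CPM or equal-total scaling). GAPDH was higher in MDA-MB-175 (73277 ± 4900.1 and 45349.8 ± 1594), as was GUSB (884 ± 50.9 and 284 ± 20.4, SD, n = 4, 3.11-fold), while YWHAZ (7588 and 21745, 2.87-fold) was higher in ZR-75-30. ACTB (log2 difference -0.11, limma adjusted p = 0.0976) and TBP (-0.03, adjusted p = 0.728) were not called, although ACTB was 0.13 log2 units higher in MDA-MB-175 after CPM or equal-total scaling and was called lower there under 6 other alternatives. TBP was called lower in MDA-MB-175 with the exon length trend removed (-0.22, limma adjusted p = 0.032).

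Along the chromosomes, the windows with the most genes higher in 1 line were picked out, in each direction. Windows picked by their counts lie above the share of all genes because of that choice. Whether genes with a difference cluster was not tested. In windows of 15 consecutive tested genes, the 3 windows with the most calls of at least 1 log2 unit higher in MDA-MB-175 held 14 such genes each (93.3%, against 23.8% of all genes). They lay on chromosome 21 from 18885361 to 30391681, on chromosome 19 from 22235232 to 28284913 and on chromosome 11 from 77300436 to 79152074 (GRCh37). The chromosome 21 window held NCAM2 (115 and 5.1), ADAMTS1 (12.9 and 0), JAM2 (7.38 and 0) and APP. The chromosome 19 window is largely a run of zinc finger genes, among them ZNF726 (29.7 and 0.142), ZNF730 (20.5 and 0) and ZNF91 (227 and 15), with the noncoding LINC00662 (26.9 and 0). TENM4 closes the chromosome 11 window, in which NARS2 (7.23-fold) and USP35 (6.85-fold) were also higher in MDA-MB-175 and only THRSP (0 and 1.98) was higher in ZR-75-30.

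All 3 windows with the most genes higher in ZR-75-30 lay on chromosome 17, outside the ERBB2 stretch. With windows of 25 genes, the last of the 3 was instead on chromosome 1, from 52497775 to 54519177 (18 of 25). The first, from 46103533 to 46703720, held 14 of 15 (93.3%, against 10.7% of all genes) and reached from the transcription factor NFE2L1 (1264, 1223, 1263 and 1140.4 against 27132, 28165, 28263 and 25959.8, 22.4-fold) and SKAP1 (3.54 and 101) through the HOXB genes to HOXB9, with COPZ2 (3.67 and 0.281) the exception. The second, from 26673659 to 26944395, held 13 of 15 (86.7%), including POLDIP2 (9.71-fold), SARM1 (1.15 and 48.5) and FOXN1 (0.395 and 19.1). The third, from 46839596 to 47661189, held 12 of 15 (80%) with ZNF652 (12.1-fold) and with IGF2BP1 (7.15 and 0.285) against the trend. After CPM scaling, 3 of these 6 windows overlapped a window among the first 3 in the same direction.

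By whole chromosome, the share of tested genes called at least 1 log2 unit higher in MDA-MB-175 ran from 16.5% on chromosome 1 to 41.0% on chromosome 21, with 38.3% on chromosome 8 and 34.4% on chromosome 20. The share higher in ZR-75-30 ran from 5.23% on chromosome 20 to 18.9% on chromosome 1, with 16.8% on chromosome 4 and 15.5% on chromosome 17. The median difference was -0.12 log2 units on chromosome 1 and 0.65 on chromosomes 8 and 20, beside 0.19 for all genes.

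The same 2 lines at high glucose gave a comparison with other cultures. There 6160 of 16977 genes (36.3%) were called with at least 1 log2 unit, 4065 higher in MDA-MB-175 (23.9%) and 2095 in ZR-75-30 (12.3%). Of the 5827 genes called at low glucose by this rule, 5736 were tested at high glucose, 5659 had the same sign, and 4809 (82.5%) were again called with at least 1 log2 unit in the same direction. The log2 differences at low and high glucose were 6.85 and 6.67 for CDH1, -3.89 and -3.68 for ERBB2, and -5.43 and -4.66 for SCGB2A2. Others were less alike side by side, with -4.30 and -2.07 for MUC2, -4.03 and -1.84 for TNC, 5.81 and 2.87 for IFI30, and 0.46 and 2.51 for TFF1. Whether the line difference changed with glucose was not tested here.

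**Figure D5:**
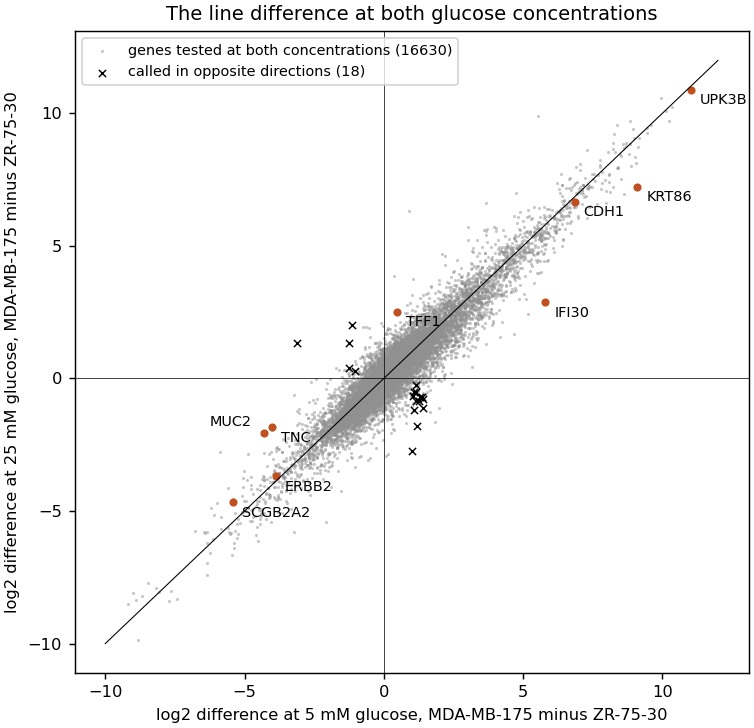
Log2 difference (MDA-MB-175 minus ZR-75-30) of each gene tested at both concentrations, at low (x axis) and high glucose (y axis), with the line of equal differences. Most genes lie along that line, MUC2, TNC and IFI30 lie off it, and crosses mark the 18 genes called in opposite directions.

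HCC1500, the third line of the series, placed these genes in a wider range at low glucose. Its CDH1 (8223 ± 41.4, SD, n = 4) was near that of MDA-MB-175, and its PGR (655 ± 27) and ESR1 (3178 ± 36.1) were above both lines. ERBB2 in HCC1500 was 1501 ± 56.7, the lowest of the lines. SCGB2A2 was 1.16 ± 0.998 and LDHB was 0 in all 4 HCC1500 libraries. IRS1 (575 ± 6.97) and SCUBE2 (2398 ± 44) were close to MDA-MB-175, IGFBP5 (69416 ± 1509) to ZR-75-30, and KRT81 (0.897 ± 0.669) was at background. These values are a description, and differences from HCC1500 were not tested here.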

How the data were processed

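RNA-Seq of 8 cultures was compared: 4 of MDA-MB-175 and 4 of ZR-75-30 at low glucose, grouped by their labels. The values deposited by the authors are signal, in the form of gene counts divided by 1 factor per sample. Dividing by the value of 1 read gave whole reads for all values in these 8 samples, within a tolerance of 0.01 reads. The study's methods name CPM with TMM factors from edgeR as the counts used for gene sets, also for cell lines, but the deposited values are not on a per-million scale (sums of 6023520 to 7323710 in these samples), so the factor behind them is unknown here. The study's methods name Trimmomatic, TopHat, hg19 and Ensembl v70 for its tumors, and the submitters' processing notes for the lines name edgeR and hg38. The strand setting and the aligner for the lines are not given in the sources used here. RNA came from cells kept without serum for 48 hours after growth in medium with serum.

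Genes reaching 0.5 in 4 or more of the 8 samples were tested with limma 3.58.1 (R 4.3.3), with trend, on log2(value + 1), two-sided, with Benjamini-Hochberg adjustment over 16890 genes. The p-values measure only the spread between cultures of 1 line each. The plan took the deposited values as normalized and not as raw counts, and kept count tests on recovered reads as alternatives. These were edgeR 4.0.16 (quasi-likelihood, TMM) and DESeq2 1.42.0. Other alternatives were further pseudocounts, filters and scalings, a model on all 24 samples, a replicate block, an exon length correction and leaving out each culture. Scaling to equal totals was added after seeing the data. The model was tested on simulated data first.

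The comparison, the gene lists and the rule for named genes were chosen with earlier results of these data known. The rule took 12 fixed genes, the 10 largest differences in each direction among called genes without overlap and with a mean of at least 10 in the higher line, the 5 most abundant genes in each line called with at least 2 log2 units, and the largest differences in each list. Other genes were named after their values were seen. Some genes that the rule takes are not reported here. No set test was run. Coordinates are GRCh37 and matched 18183 of 18889 gene IDs (96.3%). Promoters come from RefSeq GRCh38.p14 and hold 250 bases before the start. The order of the listed genes on 17q follows RefSeq. Reads of near-identical genes (KRT81 and KRT86, AKR1C2 and AKR1C3, GSTT1 and GSTT2, HLA, MUC3A, CEACAM, UGT2B17 and zinc finger genes) may be split between copies. Exons of NRG1, LDHB, IFI30, CTNND1, IGF2, PEG3, NT5C2, SARM1 and CYP2B7P1 overlap those of other annotated genes, and without the strand setting antisense reads cannot be told apart.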

Additional observations from a re-analysis of the deposited data

Results flagged for a closer look

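In 10 of 275 groups of 4 cultures, over the named genes, 1 culture lay apart from the other 3 by a Dixon ratio above its critical value at 95%, and chance gives about 1 in 20. In MDA-MB-175, culture 4 had 2903 for UPK3B against 3851 to 4019 in the others, and culture 1 had 732 for TSPYL5 against 697 to 702. Culture 2 of that line had 10.1 for SLC16A1 against 9.11 to 9.23, and 213 for OAS1 against 199 to 201. In ZR-75-30, culture 3 had 628 for WNK4 against 566 to 573 and 130.5 for SERPINA1 against 155 to 156. Culture 2 of that line had 168 for WBP5 against 207 to 213 and 240.0 for GREB1 against 201 to 205. Culture 4 had 8785 for TFF3 against 9949 to 10043, and 253 for GUSB against 292 to 296. The differences are small beside those between the lines, except for TFF3.

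For 6 genes called with at least 1 log2 unit at low glucose and called the other way at high glucose, the 2 lines were fully separated in both directions. CSF2RB had a log2 difference of 1.17 at low glucose and -0.85 at high glucose, and CRYM -1.26 and 0.41. NRSN2 had 1.16 and -0.26, with means of 266 in MDA-MB-175 and 119 in ZR-75-30 at low glucose and 261 and 313 at high glucose. NOS3 had 1.40 and -1.12, ENTPD8 1.05 and -0.65, and C2CD4A -1.16 and 2.001. C2CD4A was near the floor, with means of 2.84 and 7.52 at low glucose and 5.33 and 0.577 at high glucose. CSF2RB was also low, with 11.6 and 4.81 at low glucose and 4.63 and 9.08 at high glucose. The added 1 thus sets part of the differences of C2CD4A and CSF2RB. The change between glucose concentrations was not tested.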

How the results depend on the processing

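Under 21 alternatives, 177 named genes gave 3706 values, of which 3682 kept direction and side of the threshold, 12 lost the call, 7 gained it and 5 reversed. The reversals were XBP1 (0.13 with CPM, 0.13 at equal totals), ACTB (0.13 and 0.13) and RPL19 (-0.0722 with the exon length trend removed). The number of calls with at least 1 log2 unit higher in MDA-MB-175 was 2682 with a filter at 10, which tests fewer genes, and that higher in ZR-75-30 was 951 with CPM, where 3 of 6 windows were found again. CPM values are smaller than the deposited ones, while the added 1 stayed the same, and at equal totals it weighs less. At equal totals, 15 of 26 HOX genes reached 1 log2 unit in ZR-75-30 and 11 of 15 mucins in MDA-MB-175. The cause of the CPM values was not tested. All calls numbered 10567 to 12917, and those of at least 1 log2 unit 4072 to 6182. Leaving out a culture gave 12168 to 12470 and 5775 to 5845. The replicate block gave 12739 and 5850. The numbers do not pair the cultures: deviations of same-numbered cultures correlated at 0.011 to 0.080 over 12789 genes. The medians of the 17q, ERBB, S100, steroid receptor and luminal marker lists changed sign with CPM or equal totals, that of the CEACAM family with median-of-ratios scaling, edgeR, DESeq2, the exon length trend removed or without MDA-MB-175 culture 2, and that of the glycolysis list with the exon length trend removed or without MDA-MB-175 culture 2. The ERBB median also changed sign with no filter and without MDA-MB-175 culture 3 or ZR-75-30 culture 1. With CPM, HOX genes (11 of 26) were no longer the list with the largest share of calls of at least 1 log2 unit in ZR-75-30 (17q, 15 of 33), nor mucins (8 of 15) that in MDA-MB-175 (mesenchymal genes, 14 of 25). At equal totals, 14 junction genes reached 1 log2 unit in MDA-MB-175, against 9 as deposited. With CPM, 3 interferon-stimulated genes did so in ZR-75-30, against 5, and 2 S100 genes in MDA-MB-175, against 4. Depth limits statements on genes under 3 reads per library.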
